A study of Homo sapiens with 12 samples.

Results

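PAG1, TEC and TESK2 are 3 human genes of kinase signalling, which were followed by symbol through SK-N-BE(2) cells given inhibitors of BET proteins and histone deacetylases. They are 3 of the 14884 genes that the array annotation names, and each is read by 1 transcript cluster, the set of probes assigned to 1 transcribed locus. The cells are an established neuroblastoma line with amplified MYCN, grown in culture with serum. 4 groups of 3 arrays were compared after 6 h: vehicle, 1 µM JQ1, 10 nM panobinostat, and 1 µM JQ1 together with 10 nM panobinostat. JQ1 keeps BET proteins from binding acetylated histones, and panobinostat blocks the removal of acetyl groups by histone deacetylases. The model is thus 1 cell line, 1 dose of each compound and 1 time. Values are read as log2 signals, although the log base is not stated with them, and changes are log2 differences ± SE with n = 3 arrays per group. The labels do not say whether replicates were separate cultures, so errors and p-values measure only how far these arrays differ, which can be technical.

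PAG1, also called Cbp, is an adaptor anchored in lipid rafts of the plasma membrane. Src-family kinases phosphorylate it, the phosphorylated adaptor binds the kinase CSK, and CSK then phosphorylates the inhibitory tail tyrosine of Src-family kinases. TEC is a cytoplasmic tyrosine kinase related to BTK and is best known from blood cells. Its pleckstrin homology domain binds the lipid product of PI3-kinase, Src-family kinases activate it, and phospholipase C gamma is the classic substrate of its family. TESK2 is a kinase of the LIMK and TESK group, whose members phosphorylate cofilin and so hold back the severing of actin filaments. PAG1 and Src-family kinases have been studied in the rafts and endosomes of neuroblastoma cells.

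The 3 genes were chosen by their changes from vehicle and selected on the same arrays. PAG1 had the largest rise of all genes with JQ1. With JQ1, TESK2 took place 10 among protein-coding genes whose change passed the test without overlap of arrays and whose mean signal reached that of the median gene (7.24) in at least 1 of the groups compared. TEC met that condition on the mean signal only in the groups with panobinostat and TESK2 only in the treated groups, where each was high. PAG1 met it in all groups. TESK2 stood at a change of 1.37 with JQ1, and ABTB2, the next gene, at 1.34. In the same order for panobinostat, TEC took place 9 with a change of 1.76 and TESK2 place 10 with 1.73, ahead of STC1 at 1.69. In that order for the combination, TESK2 took place 2, TEC place 13 and PAG1 place 16. These changes are therefore a description and carry no p-value. A test is given for 3 contrasts of PAG1 and TEC only. Each shares no array or is uncorrelated with the comparison with vehicle that placed the gene among the 10 largest rises. This does not cover other orders in which a gene stood high, such as panobinostat against JQ1 for TEC or the combination against vehicle for PAG1. TESK2 stood among those with each treatment, so none of its changes is tested.

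The stretches just upstream of the transcription starts of TEC and TESK2 are shown because both genes were higher with panobinostat while TESK2 alone of the pair was also higher with JQ1. They are the 250 bases before the RefSeq start in GRCh38.p14, written 5′ to 3′ on the gene's own strand, which is the minus strand for both. Capitals mark matches on either strand to CACGTG (the E-box bound by MYC proteins), GGGCGG (the GC box) or CCAAT (the CCAAT box), and overlapping matches were each counted.
TEC, chr4:48269839-48270088: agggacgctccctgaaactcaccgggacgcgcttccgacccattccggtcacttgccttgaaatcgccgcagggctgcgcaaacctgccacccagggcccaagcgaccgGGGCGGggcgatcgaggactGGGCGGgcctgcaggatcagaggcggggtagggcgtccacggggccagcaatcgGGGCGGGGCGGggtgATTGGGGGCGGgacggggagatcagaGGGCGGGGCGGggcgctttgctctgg
TESK2, chr1:45491164-45491413: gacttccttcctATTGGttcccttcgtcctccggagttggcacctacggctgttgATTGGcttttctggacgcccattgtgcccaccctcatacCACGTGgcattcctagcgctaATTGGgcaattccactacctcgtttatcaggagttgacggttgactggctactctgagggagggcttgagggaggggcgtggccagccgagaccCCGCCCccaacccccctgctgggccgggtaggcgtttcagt
The TEC stretch holds 7 GC box matches, a number reached by 1.12% of 35116 RefSeq stretches of the same length, and 1 CCAAT match. GC content is 71.6% in TEC and 59.6% in TESK2. The TESK2 stretch holds 3 CCAAT matches, reached by 2.93% of stretches, and 1 GC box match. It also holds 1 CACGTG, which occurs in 6.34% of stretches and was not found in that of TEC. At least 1 GC box match occurs in 42.6% of stretches and at least 1 CCAAT match in 32%. A match describes the letters and is not a measured binding site. The stretch of PAG1, which rose most with JQ1, was not searched. With 1 gene of each kind, no match can be linked to a response.

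PAG1, the CSK-binding adaptor, was higher with either compound, more so with JQ1, and the combination lay at the level of JQ1 alone. Its log2 signal in the vehicle arrays was 8.59, 8.05 and 8.30 (replicates 1 to 3). It was 10.33, 10.38 and 10.28 with JQ1, 9.54, 9.64 and 9.94 with panobinostat, and 10.24, 10.21 and 10.43 with both. All treated arrays lay above all vehicle arrays, and panobinostat arrays lay below all arrays that had received JQ1. Arrays with JQ1 alone and with both compounds overlapped. The order of group means was vehicle at 8.32 ± 0.27 (SD), panobinostat at 9.71 ± 0.21, combination at 10.30 ± 0.12 and JQ1 at 10.33 ± 0.05, and the last pair did not differ beyond its spread.

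PAG1 changed by 2.02 ± 0.13 with JQ1 (4.05-fold), 1.39 ± 0.13 with panobinostat (2.63-fold) and 1.98 ± 0.13 with both (3.95-fold). Arrays lay apart with the treated group higher for 16.6% of all genes with JQ1, 19.9% with panobinostat and 22.6% with the combination. No such share is given for pairs of treated groups. Added to panobinostat, JQ1 raised PAG1 by a further 0.59 ± 0.13 (95% interval 0.30 to 0.88, limma adjusted p = 0.0127 over all genes, higher in 3 of 3 arrays), a call made upward for 6.13% of genes. This call ended without panobinostat replicate 1 (0.506, adjusted p = 0.051) or combination replicate 3 (0.521, adjusted p = 0.0504). Added to JQ1, panobinostat left PAG1 at -0.04 ± 0.13 (95% interval -0.33 to 0.26). The effect of panobinostat averaged over cells without and with JQ1 was 0.68 ± 0.10 (limma adjusted p = 0.000133), and upward calls of this kind were made for 18.4% of genes. It is correlated with panobinostat and with the combination against vehicle, in which PAG1 took places 32 and 22 of all genes. Its p-value is therefore not free of the choice of the gene. That mean covers a rise without JQ1 and no measured rise on top of it. The combination therefore fell short of the sum of the single changes by 1.43 ± 0.19, the lowest such difference of all 14884 genes. This rank may itself have helped single PAG1 out, and it favours a low rather than a high value for JQ1 on top of panobinostat. PAG1 also took place 4 of all genes for the mean effect of JQ1 over both backgrounds. That order, like the combination against vehicle, favours a high value. The p-value of JQ1 on top of panobinostat is thus not free of the choice of the gene either.

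**Figure D1:**
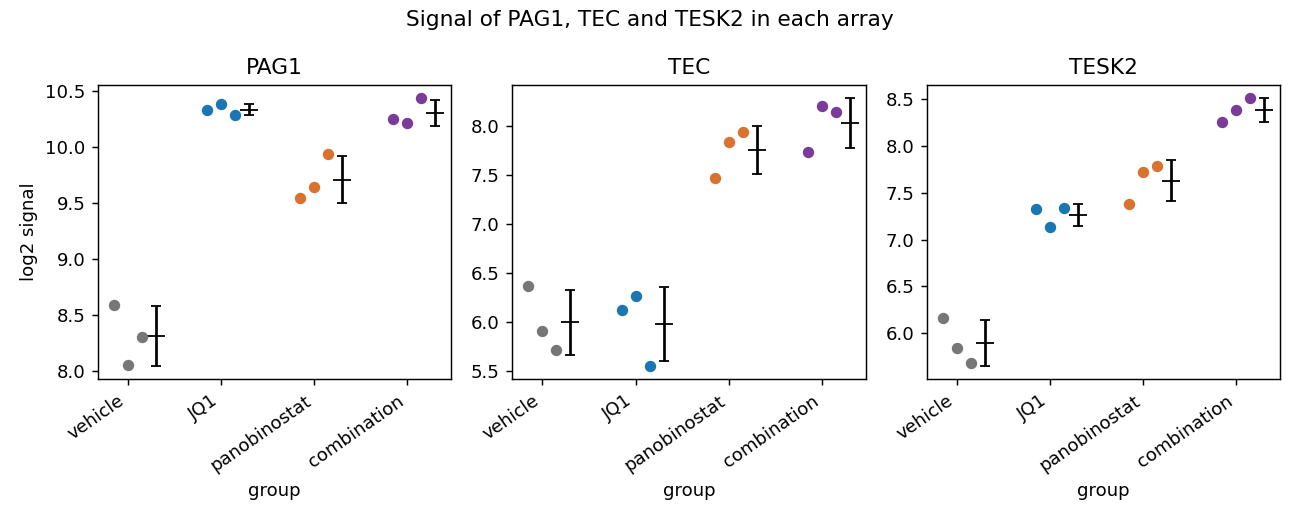
Log2 signal of PAG1, TEC and TESK2 (vertical axes, 1 scale per gene) in each of the 12 arrays by group (horizontal axes). Points are arrays in replicate order, and black bars are the group mean ± SD (n = 3). PAG1 is at about the same height with JQ1 and the combination, TEC is high in the groups with panobinostat, and TESK2 steps up from vehicle at 5.90 to the combination at 8.38.

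TEC, the tyrosine kinase, rose with panobinostat, while its JQ1 arrays overlapped the vehicle arrays. The vehicle arrays read 6.37, 5.91 and 5.71, and the JQ1 arrays 6.12, 6.27 and 5.55. With panobinostat the signal was 7.48, 7.84 and 7.94, and with the combination 7.74, 8.20 and 8.15. The 6 arrays with panobinostat were all higher than the 6 without it, whereas JQ1 and vehicle arrays overlapped, as did those of panobinostat and the combination. A share of all genes is given only for arrays that lay above vehicle (19.9% with panobinostat and 22.6% with both). Group means were 5.98 ± 0.38 (SD) with JQ1, 6.00 ± 0.34 with vehicle, 7.75 ± 0.25 with panobinostat and 8.03 ± 0.25 with both. Neighbours in this order differed beyond their spread only between vehicle and panobinostat.

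The change of TEC was 1.76 ± 0.22 with panobinostat (3.38-fold), 2.03 ± 0.22 with both compounds (4.10-fold) and 2.05 ± 0.22 when panobinostat was added to JQ1 (4.15-fold). JQ1 alone gave -0.02 ± 0.22 (95% interval -0.49 to 0.46), and JQ1 on top of panobinostat gave 0.28 ± 0.22 (-0.20 to 0.75). The mean effect of JQ1 over both backgrounds was 0.13 ± 0.15 (95% interval -0.21 to 0.47, limma adjusted p = 0.614), and 25.8% of genes were called for this contrast. The interval leaves room for a rise by up to 0.47 and a fall by up to 0.21. TEC also took place 5 of all genes in panobinostat against JQ1, an order that favours low JQ1 values. The mean effect of JQ1 is correlated with that comparison, so its p-value is not free of the choice of the gene. The combination and the sum of the single changes differed by 0.29 ± 0.31, within 1 SE of 0. TEC had the widest error of the 3 genes.

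TESK2, the cofilin kinase, was the member that went up in 3 steps. Its signal was 6.16, 5.84 and 5.68 with vehicle, and 7.33, 7.13 and 7.34 with JQ1. It was 7.38, 7.72 and 7.79 with panobinostat, and 8.26, 8.38 and 8.51 with both. No group overlapped another, although the lowest panobinostat array lay only just above the highest JQ1 array. Over all genes, arrays lay apart and above vehicle for 16.6% with JQ1, 19.9% with panobinostat and 22.6% with both. No such share is given between treated groups, so their separation has no background here. Means were 5.90 ± 0.24 (SD), 7.26 ± 0.12, 7.63 ± 0.22 and 8.38 ± 0.12 in that order.

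TESK2 changed by 1.37 ± 0.14 with JQ1 (2.58-fold), 1.73 ± 0.14 with panobinostat (3.32-fold) and 2.49 ± 0.14 with both (5.61-fold). Panobinostat on top of JQ1 gave 1.12 ± 0.14 and JQ1 on top of panobinostat 0.75 ± 0.14. Each compound thus came with a smaller change when the other was present. The combination was below the sum of the single changes by 0.61 ± 0.19. The panobinostat mean lay above the JQ1 mean by 0.36 ± 0.14, and this difference ran from 0.285 without panobinostat replicate 3 to 0.49 without panobinostat replicate 1.

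**Figure D2:**
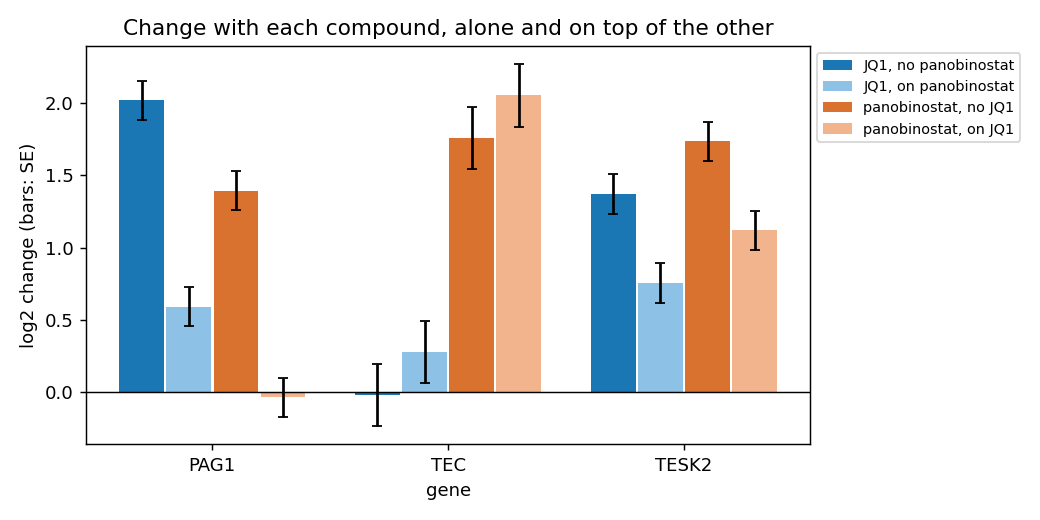
Log2 change ± SE (vertical axis, n = 3 arrays per group) of each gene (horizontal axis) with JQ1 and with panobinostat, in cells without the other compound (dark bars) and with it (light bars). For PAG1 the panobinostat bar goes from 1.39 to -0.04 when JQ1 is present, for TEC both panobinostat bars are tall, and for TESK2 all bars reach 0.75 or more.

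The 3 patterns were set side by side as group means centred on each gene's own average. PAG1 and TESK2 differed by a root mean square of 0.442 on the log2 scale, TEC and TESK2 by 0.571, and PAG1 and TEC by 0.952. The protein-coding genes nearest to PAG1 in this measure over the 4 group means were MKNK2, which phosphorylates the translation factor eIF4E (0.230), SESN3, a sestrin (0.239), DNM3, a dynamin (0.261), ABTB2 (0.267) and EFNB2, an ephrin ligand (0.277). None came as near as the closest genes of TEC and TESK2. For TEC they were STC1, the secreted hormone stanniocalcin (0.0623), EFCAB12 (0.0947), CCDC110 (0.137), EFNA4, another ephrin ligand (0.154), and EXPH5 (0.183). STC1 read 8.40, 8.49, 10.09 and 10.46 on average with vehicle, JQ1, panobinostat and both, which is the flat and then raised course of TEC. For TESK2 they were AHR, the aryl hydrocarbon receptor (0.149), USP53 (0.177), THEMIS2 (0.206), PAIP2B, an inhibitor of poly(A)-binding protein (0.208), and KIAA0513 (0.222). USP53 stepped up through 5.73, 6.67, 7.41 and 8.20 in the same group order.

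**Figure D3:**
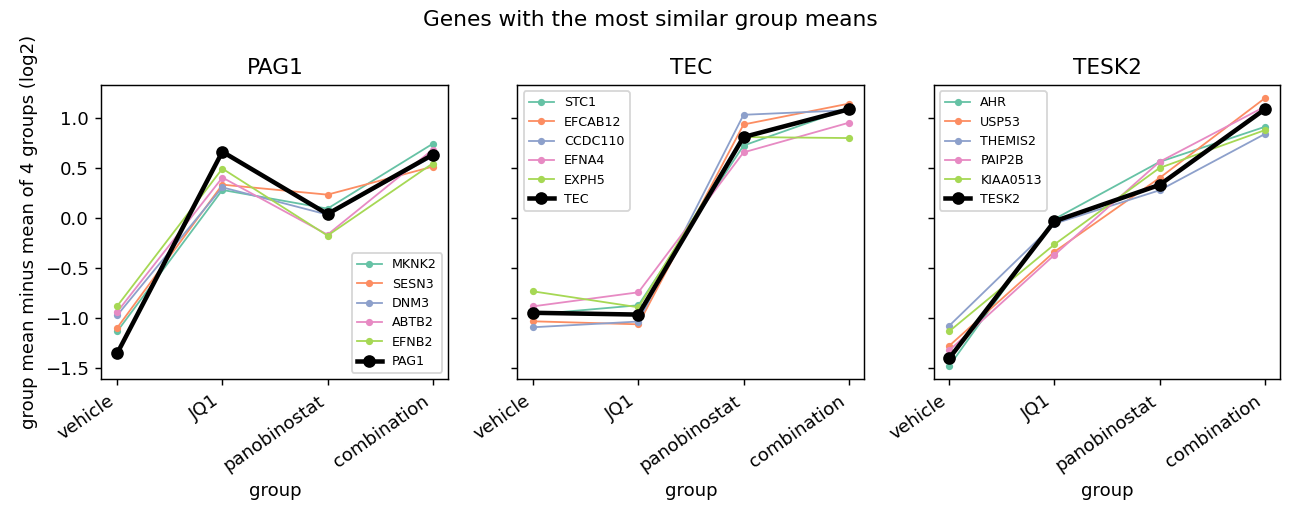
Group means minus the gene's mean over the 4 groups (vertical axis, log2) by group (horizontal axis), for PAG1, TEC and TESK2 (black) and the 5 protein-coding genes nearest to each (colours). The nearest genes to PAG1 share its low vehicle point. They rise less with JQ1, as any gene must, since PAG1 had the largest such rise of all genes. Those of TEC run flat from vehicle to JQ1.

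The partners of PAG1 mostly did not rise with it. CSK, the kinase that PAG1 recruits, was at -0.17 ± 0.09 with JQ1 (adjusted p = 0.249) and fell by 0.35 ± 0.09 with panobinostat (adjusted p = 0.0109) and by 0.59 ± 0.09 with both (adjusted p = 0.000214). SRC itself fell in the 3 comparisons, to -0.77 ± 0.12 with JQ1, -0.68 ± 0.12 with panobinostat and -0.91 ± 0.12 with both (adjusted p = 7.2e-05). LYN, another Src-family kinase, fell as well (-0.40 ± 0.08, -0.37 ± 0.08 and -0.96 ± 0.08, adjusted p = 1.35e-06 for the combination). FRK, a more distant relative of SRC, went the other way and rose by 1.11 ± 0.15 with panobinostat (adjusted p = 0.000187) and 0.72 ± 0.15 with both. Its vehicle mean was low at 5.395. YES1, LCK, FGR and BLK were not called in any comparison with vehicle, at values from -0.29 to 0.25. EZR, which encodes ezrin, the linker between membrane proteins and actin, rose by 0.45 ± 0.06 with panobinostat and 0.50 ± 0.06 with both. LAX1, a membrane adaptor of lymphocytes, was called at 0.28 ± 0.10 with both (adjusted p = 0.0464), a call that ended after quantile normalization (0.223), with the replicate block (adjusted p = 0.082), with a variance trend (adjusted p = 0.0838), with only the arrays compared (adjusted p = 0.0637) and without any 1 of 9 arrays. Those arrays were vehicle replicates 1 and 2, JQ1 replicate 3 and all panobinostat and combination replicates, and LAX1 then lay between 0.188 and 0.318.

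Src-family kinases and the genes that control them had 16 measured members beside PAG1, of 34 listed. 0 were higher and 2 lower with JQ1, 2 higher and 3 lower with panobinostat, and 3 higher and 4 lower with both. Over all genes 8.18% were higher and 9.47% lower with JQ1, 14.5% and 14.8% with panobinostat, and 18.2% and 19.5% with the combination. The median changes of the list were -0.04, -0.01 and -0.08, against 0.01, 0.03 and 0.02 over all genes. By count and median this list lay near the background, and its called members went both ways.

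TXK, a relative of TEC that is encoded beside it, rose by 0.95 ± 0.15 with both compounds (adjusted p = 0.00037). With panobinostat alone TXK was called at 0.47 ± 0.15 (adjusted p = 0.0392), a call that ended after quantile normalization (0.368), with a replicate term (adjusted p = 0.0756), with only the arrays compared (adjusted p = 0.093) and without any 1 of 6 arrays. Those were vehicle replicates 2 (0.475) and 3 (0.345), panobinostat replicates 1 (0.49) and 3 (0.312), JQ1 replicate 1 and combination replicate 3 (0.466 each). BTK was at 0.08, 0.14 and 0.11 with JQ1, panobinostat and both, none of them called. Among genes around TEC kinases, JAK1, a cytokine receptor kinase, rose by 0.75 ± 0.08 with JQ1, 0.43 ± 0.08 with panobinostat and 0.76 ± 0.08 with both. SOCS1, a feedback inhibitor of JAK signalling, rose by 0.78 ± 0.10 with JQ1 and 0.83 ± 0.10 with both. VAV3, a guanine nucleotide exchange factor, rose by 0.93 ± 0.17 with panobinostat, from a low vehicle mean of 4.625. JAK2 fell by 0.50 ± 0.10 with panobinostat. GTF2I, a transcription factor that is phosphorylated by BTK, fell in the 3 comparisons (-0.53 ± 0.12, -0.68 ± 0.12 and -1.25 ± 0.12), although near-identical copies of this gene in the genome leave its probes uncertain. Of 18 measured genes of the TEC family and its pathway beside TEC (33 listed), 2 were higher and 2 lower with JQ1, 3 and 4 with panobinostat, and 4 and 4 with both. These calls made up 22.2%, 38.9% and 44.4% of the list. Over all genes 8.18% were higher and 9.47% lower with JQ1, 14.5% and 14.8% with panobinostat, and 18.2% and 19.5% with both. The list medians were 0.04, -0.08 and 0.01, so higher and lower members were about even, as over all genes.

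TESK1, the paralog of TESK2, rose by 0.37 ± 0.08 with both compounds (adjusted p = 0.00215). Its value of 0.25 ± 0.08 with panobinostat (adjusted p = 0.0291) was no longer called with a replicate term (adjusted p = 0.0554), with only the arrays compared (adjusted p = 0.0609) or without vehicle replicate 2 (0.251) or 3 (0.23) or panobinostat replicate 1 (0.232) or 3 (0.223). LIMK1 and LIMK2, the better known cofilin kinases, lay between -0.14 and 0.09 in the 3 comparisons and were not called. CFL2, the muscle-type cofilin, fell by 0.34 ± 0.08 with JQ1 (adjusted p = 0.00836) and by 0.73 ± 0.08 with both (adjusted p = 1.17e-05). PFN2, a profilin of neurons, fell in the 3 comparisons (-0.46 ± 0.07, -0.48 ± 0.07 and -0.79 ± 0.07). CDC42BPA, a myotonic dystrophy kinase-related kinase downstream of CDC42, fell likewise (-0.38 ± 0.08, -0.67 ± 0.08 and -1.04 ± 0.08). A further cluster of the same gene, with p adjusted over the 53617 clusters, fell with panobinostat (-0.42, adjusted p = 0.0161) and with both (-0.51, adjusted p = 0.00298) and was at -0.25 with JQ1 (adjusted p = 0.196). SPRY2, a Sprouty inhibitor of receptor tyrosine kinase signalling, fell by 0.69 ± 0.07 with panobinostat and by 0.93 ± 0.07 with both.

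Of 18 measured genes of the cofilin kinases and their pathway beside TESK2 (35 listed, SPRY2 among them), 0 were higher and 4 lower with JQ1, 1 and 4 with panobinostat, and 2 and 6 with both. Over all genes 9.47% were lower with JQ1, 14.8% with panobinostat and 19.5% with both. The medians were 0.02, -0.08 and -0.12. With both compounds 44.4% of these genes were called, against 37.7% of all genes, and 6 of the 8 called were lower. The 2 called higher were TESK1 and CDC42BPB (0.23 ± 0.07, adjusted p = 0.0245). CFL1 (0.05, -0.05 and 0.02) and DSTN (-0.13, -0.15 and -0.12) were not called with JQ1, panobinostat or both.

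**Figure D4:**
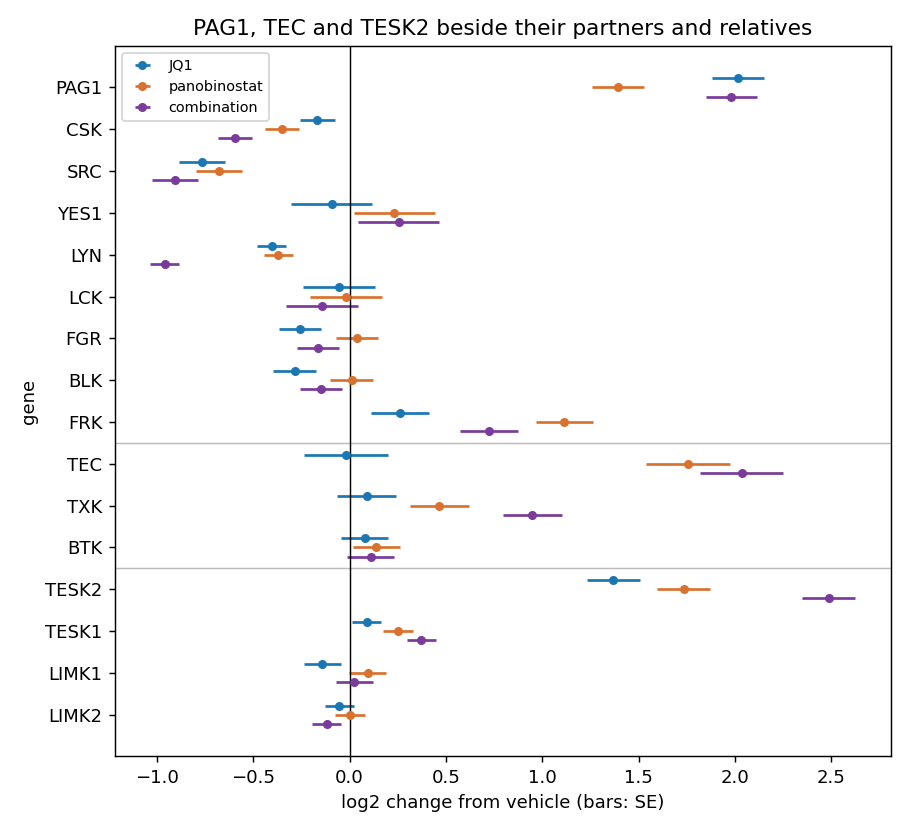
Log2 change from vehicle ± SE (horizontal axis, n = 3 arrays per group) of PAG1 with CSK and the Src-family kinases, TEC with its relatives, and TESK2 with the other cofilin kinases (vertical axis), by treatment. PAG1 lies at 1.39 or higher in all treatments while CSK, SRC and LYN lie left of 0, and the LIM kinases stay near 0.

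The genes beside each member on its chromosome were read as an order only. TEC lies on chromosome 4, and the nearest measured protein-coding genes on one side are TXK and then NIPAL1, a magnesium transporter. NIPAL1 rose by 1.01 ± 0.17 with panobinostat (adjusted p = 0.000878) and 1.55 ± 0.17 with both (adjusted p = 1.97e-05) and was at 0.10 ± 0.17 with JQ1. TXK, NIPAL1 and TEC thus stand side by side, and all were highest with both compounds. Both neighbours were dim, as TXK means ran from 4.79 with vehicle to 5.74 with both and NIPAL1 means from 4.93 to 6.48. Array medians lay between 6.12 and 6.29. On the other side ZAR1, an oocyte gene, fell by 0.64 ± 0.13 with panobinostat and by 1.21 ± 0.13 with both, and FRYL rose in the 3 comparisons by 0.43 to 0.65. Upward calls with the combination were made for 18.2% of genes. SLAIN2 and SLC10A4, which lie between TEC and ZAR1, were not analysed here.

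No measured neighbour of PAG1 or TESK2 rose by as much as the member. The members were chosen among the largest rises of all genes, so this was largely set beforehand and is no result about the neighbours. Beside PAG1 on chromosome 8, ZNF704 fell with JQ1 (-0.41 ± 0.07) and with both (-0.72 ± 0.07), ZBTB10 was called at 0.36 ± 0.09 with JQ1, and FABP5, a fatty acid-binding protein, and PMP2, a myelin protein, were not called against vehicle. The ZBTB10 call was lost without vehicle replicate 2 (0.301) or 3 (0.332) or JQ1 replicate 1 (0.335) or 2 (0.346). Beside TESK2 on chromosome 1, HPDL fell with panobinostat (-1.23 ± 0.12) and with both (-1.46 ± 0.12). MUTYH, a DNA repair glycosylase, fell by 0.30 ± 0.08 with both. NASP, a histone chaperone, fell by 0.21 ± 0.06 with panobinostat (adjusted p = 0.0264), a call that ended with only the arrays compared (adjusted p = 0.0976) and without vehicle replicate 1 (-0.193) or 3 (-0.19) or panobinostat replicate 1 (-0.179). PRDX1, a peroxiredoxin, was not called. HPDL lies beyond MUTYH as seen from TESK2. TOE1, between MUTYH and TESK2, and CCDC163 and MMACHC, between TESK2 and PRDX1, were not analysed here.

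**Figure D5:**
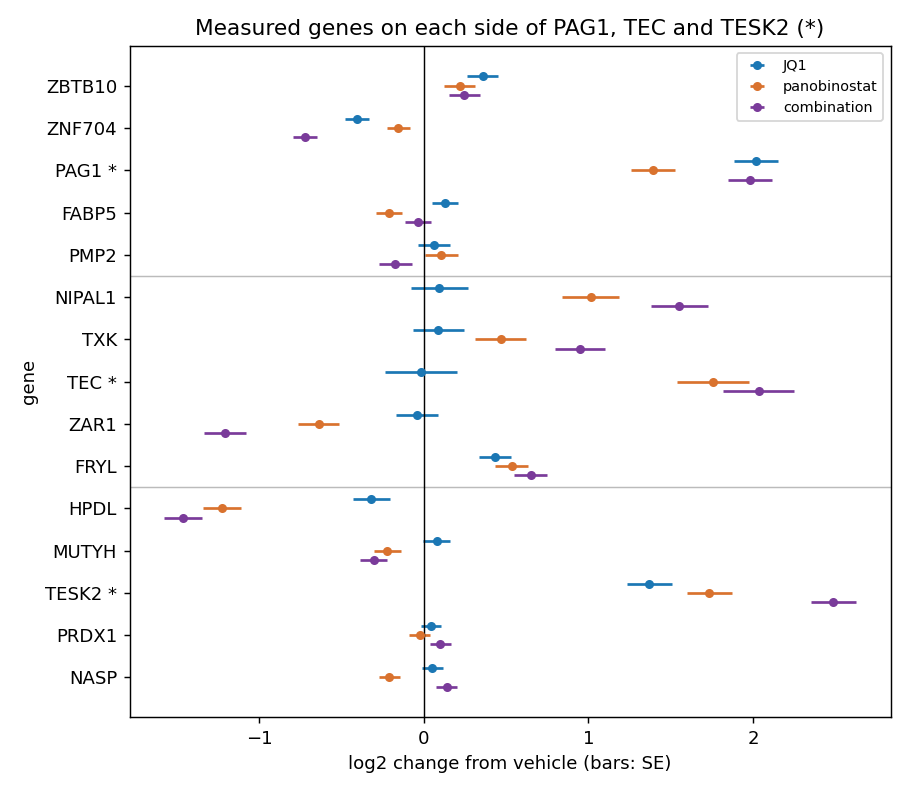
Log2 change from vehicle ± SE (horizontal axis, n = 3 arrays per group) of the measured protein-coding genes on each side of PAG1, TEC and TESK2 (asterisks), in chromosome order (vertical axis). NIPAL1, TXK and TEC lie right of 0 with panobinostat and the combination, whereas HPDL, beyond MUTYH on one side of TESK2, lies left of 0.

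Marker genes of the labelled cell type were lower in many cases. Of 15 genes that define sympathetic neuroblastoma cells, 12 were measured, with vehicle means from 8.73 (CHGB) to 12.76 (STMN2). 1 was higher and 3 lower with JQ1, 8 lower with panobinostat and 12 of 12 lower with both, among them HAND2 (-1.23 ± 0.08), GATA3 (-1.22 ± 0.07) and PHOX2A (-1.16 ± 0.07), transcription factors of sympathetic neuroblasts. Over all genes 8.18% were higher and 9.47% lower with JQ1, 14.8% lower with panobinostat and 19.5% lower with both. ISL1 was called lower with JQ1 (-0.225 ± 0.058), but a further cluster of it was at 0.04 ± 0.10 (adjusted p = 0.912 over all clusters). That further cluster was lower with panobinostat (-0.37, adjusted p = 0.0343) and with both (-0.35, adjusted p = 0.0328). The 4 calls with JQ1 became 1 without vehicle replicate 2 or JQ1 replicate 3, and 2 without vehicle replicate 3 or JQ1 replicate 1 or 2. The summed log2 signal of the 12 genes ran from 130.2 to 130.5 in vehicle arrays, 128.8 to 129.2 with JQ1, 125.0 to 125.4 with panobinostat and 122.0 to 122.5 with both. The part of this shift in the changes of PAG1, TEC and TESK2 was not tested. Of 12 blood cell genes 3 were measured (CD14, LYZ and SPI1), none was called against vehicle, and their sums lay between 17.82 and 18.87 over all arrays. Of 10 mesenchymal genes 6 were measured, with sums from 48.07 to 50.50. Of these 6, 1 was called higher and 1 lower with JQ1, none with panobinostat and 2 lower with both, among them LUM, a matrix proteoglycan (-0.41 ± 0.10). The call of THY1, a surface glycoprotein, with JQ1 (0.21) ended with the replicate block (adjusted p = 0.0813), with only the arrays compared and without any 1 vehicle or JQ1 array or combination replicate 3 (0.193 to 0.229). That of LUM with JQ1 (-0.33) ended after median centring, with only the arrays compared and without vehicle replicate 1 or 3, JQ1 replicate 1 or 2, panobinostat replicate 1 or combination replicate 1 (-0.338 to -0.265). That of DCN, the proteoglycan decorin, with both (-0.52) ended with only the arrays compared and without vehicle replicate 1 or 3 or combination replicate 1 or 2 (-0.507 to -0.37). The values carry no detection call, so no marker can be called absent, and in RNA from whole cultures fewer cells of a type and less RNA per cell cannot be told apart.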

How the data were processed

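Each of the 12 total RNA samples was read on its own Affymetrix Human Gene 2.0 ST array after biotin labelling, per the labels. The deposited table holds 53617 transcript clusters with values from 1.39 to 14.1, which were read as log2 signals from their range. MAS5 and affy are named, without role or version, per the submitters' processing notes. How background was corrected and arrays were normalized, and on which build, is not given in the sources read here. Array medians lay between 6.12 and 6.29, and correlations between arrays of a group between 0.991 and 0.995. Precision is limited by the number of arrays.

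An annotation table gave 1 symbol to each of 16098 clusters, and the cluster with the highest mean stood for a gene (14884 genes). A limma 3.58.1 model (R 4.3.3, lmFit, then eBayes) with a mean for each group took in all 12 arrays, without a filter on low signal. P-values are two-sided and adjusted by Benjamini-Hochberg over all genes, and a gene was called under 0.05. Exact permutation of 3 against 3 arrays cannot reach that level. The fit was tested on simulated data with known shifts. The TESK2 interaction and panobinostat minus JQ1 for TESK2 had been planned as tests and are given as values only, because both single changes had also singled TESK2 out. Lists were described by counts and medians without a set test.

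The members and lists were chosen with earlier results of these data known. Genes named are the members, all measured relatives, up to 3 called genes with the largest change per wider list and comparison with vehicle, the nearest measured protein-coding genes on each side of a member (2 per side), and the 5 genes nearest in pattern. Sequences are from RefSeq (GRCh38.p14), in which both genes searched were found. Alternatives were median centring, quantile normalization, a replicate term, fits of only the arrays compared, means over clusters, a floor at the 40th percentile of gene means, a variance trend, and leaving out each array. Same-numbered arrays of different groups did not deviate together (4 of 18 pairs had a correlation above 0.1), so the numbers were not treated as pairs. The deviations were not without structure. Vehicle replicate 1 correlated at -0.693 with panobinostat replicate 1, at -0.648 with combination replicate 1 and at 0.486 with panobinostat replicate 3. For PAG1, TEC and TESK2, replicate 1 was the highest vehicle array and the lowest panobinostat array. The cause was not tested.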

Additional observations from a re-analysis of the deposited data

Results flagged for a closer look

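PHOX2A is a transcription factor of sympathetic neuroblasts. Among listed genes other than the members, it alone was called for a different effect of panobinostat without and with JQ1. Its change with both compounds lay below the sum of the single changes (interaction -0.468 ± 0.094, limma adjusted p = 0.048, n = 3 arrays per group), and such calls were made for 0.759% of all genes. The adjusted p was 0.139 with a replicate term, 0.0609 after median centring, 0.054 after quantile normalization, and 0.0607 to 0.117 without any 1 array (values -0.511 to -0.428). For PHOX2A it was 0.0501 with means over clusters, 0.0137 without genes under the 40th percentile and 0.00569 with a variance trend. GATA3 lay just outside the call with a like value (interaction -0.461 ± 0.094, limma adjusted p = 0.0526).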

How the results depend on the processing

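The changes of PAG1, TEC and TESK2 given without a p-value moved by less than 1 SD of the replicates under the alternatives tried. Without 1 array, JQ1 on top of panobinostat gave 0.506 to 0.705 for PAG1, with the losses named above, and panobinostat minus JQ1 gave 0.285 to 0.49 for TESK2. With the replicate block the PAG1 value was 0.589 (adjusted p = 0.0235), so the block did not change that call. The mean JQ1 effect on TEC stayed uncalled and the mean panobinostat effect on PAG1 stayed called under the alternatives that gave a value. Genes departing from additivity numbered 113, and 282 after quantile normalization, 48 with the replicate block, 259 without dim genes, 322 with a variance trend and 28 to 86 without 1 array. Genes called between the combination and panobinostat numbered 2184, and 1325 with only the arrays compared. With JQ1, Src genes called numbered 2, and 4 after quantile normalization, without dim genes or with a variance trend. Neuroblastoma markers called with JQ1 numbered 4, and 2 with only the arrays compared and 1 to 5 without 1 array. The cause was not tested.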
